A study of Rattus norvegicus with 44 samples.

Results

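*Serpina7*, *Ttr* and *Dio1* encode 2 plasma carriers of thyroid hormone and an enzyme that activates it, and their transcripts were followed in liver and kidney of rats given an industrial alcohol. A gene was taken where the platform annotation of a probe set (the group of short probes that measures 1 transcript) gives exactly 1 gene and that gene is a member. This found 1 probe set for each, so 3 of 31042 probe sets and 3 of 14217 named genes. The members were chosen by results of these same arrays, among them the low liver level of *Serpina7* at the top doses, so its differences that involve liver levels are given as a description with no test, and its liver values enter a test only as deviations from their dose means. Whether the values of *Ttr* and *Dio1* played a part in the choice is not recorded, so their tests are not independent evidence.

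The rats were male Harlan Sprague Dawley animals, 6 to 8 weeks old when assigned to groups. Crude 4-methylcyclohexanemethanol (MCHM), an alcohol mixture used in washing coal, was given by gavage in corn oil at 5 mL/kg on 5 days, and the animals were killed on the next day. All groups received corn oil, and the doses were 500, 300, 100, 10, 1 and 0.1 mg/kg beside a vehicle group that received oil alone. Liver had 4 arrays at every dose except 3 at 0.1 mg/kg, and kidney had 3 for vehicle and for each of the 2 top doses and 2 at each other dose, 44 arrays in all, each of a sample labelled as a biological replicate.

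Most thyroid hormone in blood is thyroxine bound to proteins made by the liver. *Serpina7* encodes thyroxine-binding globulin, a serpin that no longer inhibits proteases and binds the hormone tightly. *Ttr* encodes transthyretin, which carries thyroxine and, through retinol-binding protein, vitamin A, and which together with albumin carries more of the hormone in rats than in humans. *Dio1* encodes type 1 iodothyronine deiodinase, a selenoprotein of liver, kidney and thyroid that removes iodine from thyroxine to make the active hormone triiodothyronine and also clears inactive forms. *Dio1* is itself a gene that triiodothyronine raises.

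The stretches around the annotated transcription starts are printed because *Serpina7* and *Ttr* stood far higher in liver than in kidney and *Dio1* did not. Each runs from 250 bases before to 50 bases after the start on the gene's own strand, from RefSeq on assembly GRCr8. Capitals mark the motifs that were found.
Serpina7 (chrX:107457632-107457931, minus strand): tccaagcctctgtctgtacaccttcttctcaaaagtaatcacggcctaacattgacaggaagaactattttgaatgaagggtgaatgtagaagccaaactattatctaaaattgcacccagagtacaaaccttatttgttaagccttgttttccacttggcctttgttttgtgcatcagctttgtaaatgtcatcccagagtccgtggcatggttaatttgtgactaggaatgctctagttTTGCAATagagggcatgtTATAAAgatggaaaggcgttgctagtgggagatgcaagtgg
Ttr (chr18:12218508-12218807, plus strand): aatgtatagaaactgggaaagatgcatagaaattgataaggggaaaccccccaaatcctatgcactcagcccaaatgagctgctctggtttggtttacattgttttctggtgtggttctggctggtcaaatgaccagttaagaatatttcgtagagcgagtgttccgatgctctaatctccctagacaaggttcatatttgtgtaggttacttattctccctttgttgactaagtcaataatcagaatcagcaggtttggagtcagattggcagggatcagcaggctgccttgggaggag
Dio1 (chr5:127319735-127320034, minus strand): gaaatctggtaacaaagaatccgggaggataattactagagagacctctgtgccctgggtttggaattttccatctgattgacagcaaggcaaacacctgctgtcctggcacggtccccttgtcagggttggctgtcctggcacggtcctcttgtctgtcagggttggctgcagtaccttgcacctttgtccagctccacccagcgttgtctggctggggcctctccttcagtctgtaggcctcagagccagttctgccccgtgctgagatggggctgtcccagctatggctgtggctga
The motifs searched on both strands were the TATA box TATAAA, the nuclear receptor hexamer AGGTCA, the forkhead motif TGTTTAC and the C/EBP motif TTGCAAT. The *Serpina7* window holds TTGCAAT, whose first base lies 9 bases before the start, and TATAAA from position 10 of the transcript, counted from 1 at the start, and the motifs do not overlap. Among 33469 rat promoter windows of this length, 2.17% hold TTGCAAT, 14.2% TATAAA, 16.2% AGGTCA and 3.78% TGTTTAC. None of these letters is in the windows of *Ttr* and *Dio1*, which says nothing about the factors. The arrays did not measure binding at these stretches.

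Several arrays stand apart. *Xist*, the RNA that coats an inactive X chromosome, read 8.25 in the second vehicle liver and 6.95 in the second vehicle kidney (replicate 2 of each), on the log2 expression scale used throughout, against 2.68 to 3.27 elsewhere, which goes against the label male. *Serpina7* lies on chromosome X, and the part of this in its values was not tested. Kidney replicate 1 at 1 mg/kg held transcripts typical of liver, described with *Ttr*, and kidneys differed in adipocyte transcripts, described with *Dio1*. Without kidney vehicle replicate 1, 616 probe sets passed the threshold between 500 mg/kg and vehicle in kidney in place of 0. The labelled organs bore their markers, with a mean of 7 hepatocyte markers of 12.48 to 13.02 in liver arrays and of 8 proximal tubule markers of 11.99 to 12.51 in kidney arrays.

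The 2 carriers were liver transcripts and the deiodinase was higher in kidney. In vehicle arrays *Serpina7* averaged 10.14 ± 0.32 (SD, n = 4) in liver and 2.86 ± 0.07 (SD, n = 3) in kidney, a log2 difference of 7.28 that is given with no test. *Ttr* averaged 14.21 ± 0.02 (SD, n = 4) in liver and 4.85 ± 0.23 (SD, n = 3) in kidney, a log2 difference of 9.37 (SE 0.48, limma adjusted p = 6.37e-19). *Dio1* averaged 6.85 ± 0.20 (SD, n = 4) in liver and 7.85 ± 0.15 (SD, n = 3) in kidney, so liver was lower by a log2 difference of -0.996 (SE 0.12, limma adjusted p = 8.02e-09), 1.99-fold. Between these organs 61.4% of all probe sets passed the threshold of an adjusted p under 0.05, 32.9% higher and 28.5% lower in liver, so passing was common. Without the vehicle liver that stood apart in *Xist* the *Serpina7* difference was 7.15, and without the vehicle kidney that did so the *Dio1* difference was -1.08. Whether the organs were normalized together is not given in the sources used here. In kidney the mean of *Serpina7* over all arrays lay above that of 5.45% of probe sets, so its kidney values sit near the floor of the array. In liver 8 probe sets had a higher mean than *Ttr*.

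**Figure D1:**
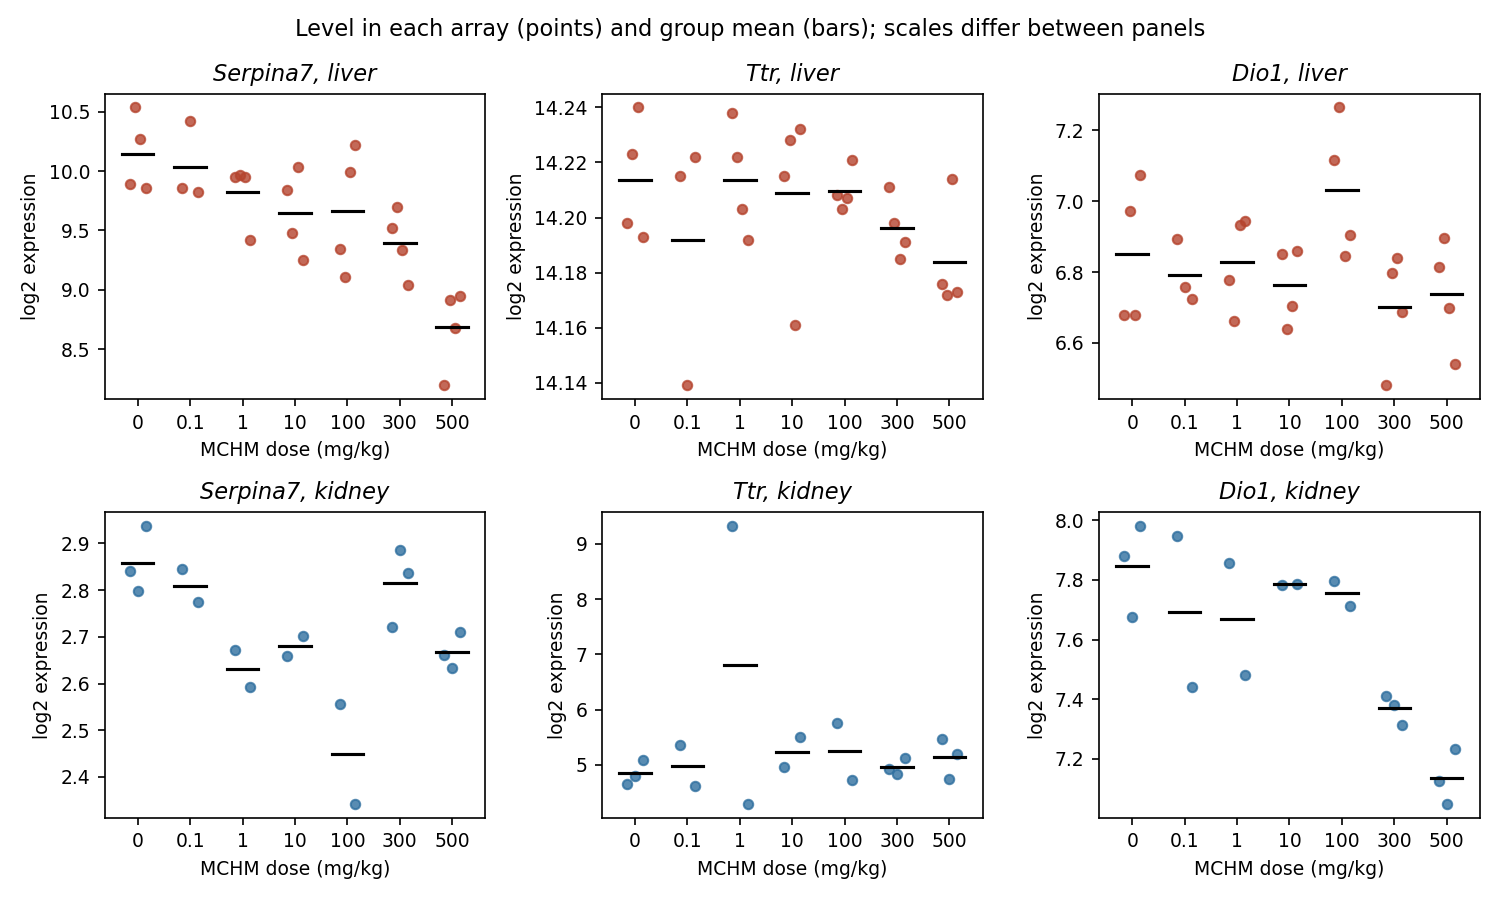
Log2 expression of each gene (rows of panels: liver above, kidney below) against the MCHM dose in mg/kg; points are arrays, bars are group means and the vertical scales differ between panels. Liver *Serpina7* at 500 mg/kg lies below every other liver array, kidney *Dio1* at 300 and 500 mg/kg lies below every other kidney array, and liver *Ttr* stays between 14.14 and 14.24.

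The transcript of thyroxine-binding globulin was lowest in livers at 500 mg/kg. Vehicle livers read 9.89, 10.54, 10.27 and 9.86, and livers at 500 mg/kg read 8.19, 8.91, 8.68 and 8.95. All 4 arrays at 500 mg/kg lay below all 23 other liver arrays, as 32 probe sets (0.103%) did. At 300 mg/kg the values were 9.52, 9.69, 9.34 and 9.04, all below the vehicle arrays. Against vehicle the groups at 500 and at 300 mg/kg lay wholly lower for 2.43% and 2.37% of all probe sets.

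At 100 mg/kg the livers divided, with 9.34 and 9.11 below and 10.00 and 10.22 among the vehicle values. The lower doses reached into the vehicle range, with 9.86, 10.42 and 9.83 in livers given 0.1 mg/kg, 9.95, 9.97, 9.95 and 9.42 in those given 1 mg/kg, and 9.84, 9.48, 10.03 and 9.25 in those given 10 mg/kg. The group means ran, from the highest, vehicle, 0.1, 1, 100, 10, 300 and 500 mg/kg. Each neighbouring pair in this order overlapped except 300 and 500 mg/kg. The within-dose SD of *Serpina7* in liver, 0.36, exceeded that of 97.9% of probe sets, so its animals differed more at a given dose than those of most transcripts.

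As a description, the log2 difference from vehicle was -0.47 (SE 0.23) at 100 mg/kg and -0.74 (SE 0.23) at 300 mg/kg. At 500 mg/kg it was -1.46 (SE 0.23), a 2.75-fold lower level. The SEs take no account of the choice of this gene for its low liver level, so they serve as no test. The slope was -0.21 per dose level (SE 0.03) over the levels 0 to 6. The difference between 500 and 300 mg/kg was -0.71, and between 500 mg/kg and the 3 lowest doses together -1.13. Without the vehicle liver that stood apart in *Xist*, which held the highest *Serpina7* value, the difference at 500 mg/kg was -1.32, at 300 mg/kg -0.61, and at 100 mg/kg -0.34. Over the whole table limma called 0.177% of probe sets in livers given 500 mg/kg and 0.122% in those given 300 mg/kg. The share was 0 for 100 mg/kg, where 1872 had an unadjusted p under 0.05. With no difference at all, a share of 0.05 of probe sets would have such a p on average.

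In pieces of whole organ, fewer cells of a type and less RNA per cell cannot be told apart. The hepatocyte marker mean ran from 12.53 to 12.78 among vehicle livers and from 12.48 to 12.86 among livers given 500 mg/kg, overlapping ranges. Of 7 hepatocyte markers 5 lay above and 2 below vehicle at 500 mg/kg, with a median log2 difference of 0.01 against 0.00 for all probe sets. All 7 stellate cell and fibroblast markers (median -0.40), all 4 cholangiocyte markers (median -0.30) and 4 of 5 macrophage markers (median -0.24) lay below vehicle, none past the threshold. All 5 lymphocyte and plasma cell markers lay below it too (median -0.14). Among them *Jchain*, which links antibody chains, fell by 0.81 (SE 0.17, limma adjusted p = 0.0472). In this comparison 0.177% of all probe sets passed, and the *Jchain* call was not followed with single arrays left out. The part of these cell types in the *Serpina7* values was not tested.

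In kidney *Serpina7* read between 2.34 and 2.94 in all 17 arrays. The lowest pair, 2.56 and 2.34, was at 100 mg/kg, where the log2 difference from vehicle was -0.41 (SE 0.09, limma adjusted p = 1), and at 500 mg/kg it was -0.19 (SE 0.08, limma adjusted p = 0.467). Kidneys at 100 and at 500 mg/kg lay wholly below vehicle, as did 7.9% and 8.81% of all probe sets. None of the 31042 probe sets passed in any kidney comparison in limma. An unadjusted p under 0.05 was reached by 1225 at 100, 1123 at 300 and 3131 at 500 mg/kg. With no difference at all, a share of 0.05 of probe sets would reach it on average, so nothing is read from these counts. The liver change of *Serpina7* minus its kidney change at 500 mg/kg was -1.27 (SE 0.30), also a description because the liver values enter it.

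**Figure D2:**
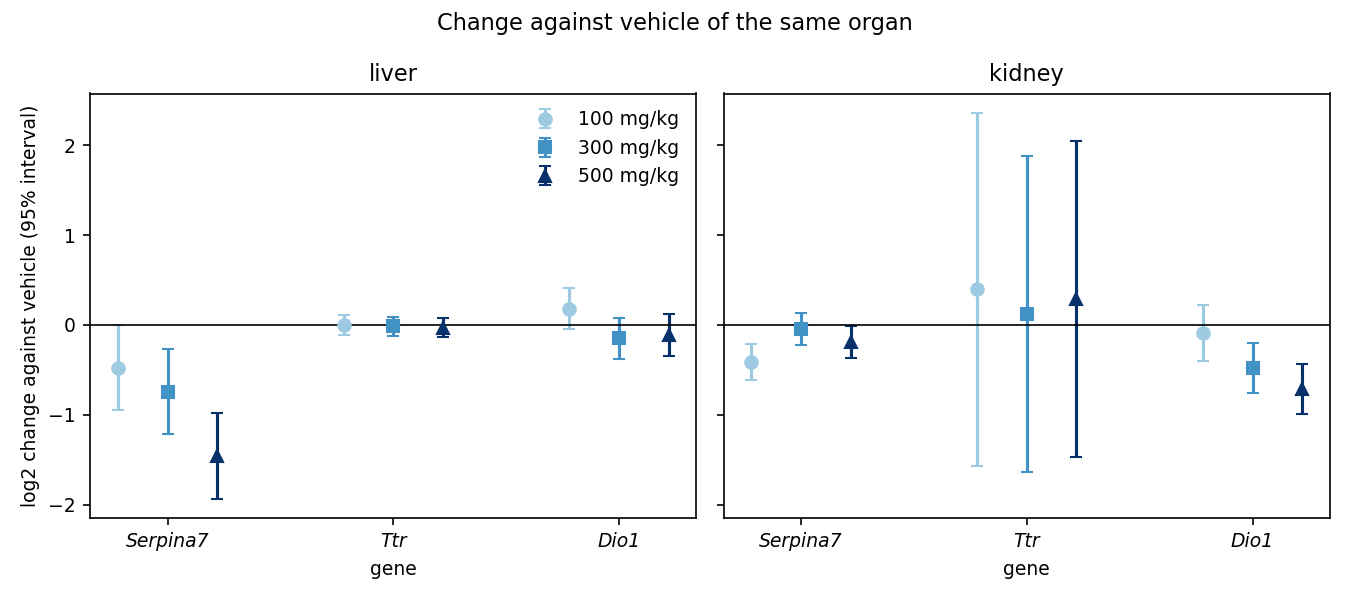
Log2 difference from vehicle of the same organ (vertical axis) at 100, 300 and 500 mg/kg for each gene, with 95% intervals from limma, liver left and kidney right. Liver *Serpina7* runs from -0.47 to -1.46 and kidney *Dio1* from -0.09 to -0.71, while the interval of kidney *Ttr* at 500 mg/kg runs from -1.47 to 2.04. The intervals of liver *Serpina7* take no account of its choice for a low liver level and are no test.

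The transthyretin transcript showed no detectable change in liver. It read from 14.14 to 14.24 in all 27 livers, with a median of 14.21, and its within-dose SD of 0.02 was lower than that of all but 0.0161% of probe sets. At 500 mg/kg the arrays read 14.18, 14.17, 14.21 and 14.17, overlapping the vehicle values of 14.20, 14.22, 14.24 and 14.19. The log2 difference was -0.03 (SE 0.05, 95% interval -0.14 to 0.08, limma adjusted p = 0.925), and over all 6 doses together limma's adjusted p was 0.999. No scanner files were used, so whether these probes were saturated is not known, and the narrow range of so bright a probe set does not by itself show an even RNA level.

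In kidney *Ttr* was low in 16 arrays, 4.29 to 5.76, and stood at 9.32 in replicate 1 at 1 mg/kg. The vehicle kidneys read 4.65, 4.80 and 5.09 and the kidneys at 500 mg/kg 5.47, 4.74 and 5.19, overlapping ranges. The log2 difference at 500 mg/kg was 0.29 (SE 0.82, limma adjusted p = 0.936). Without the single high array its SE was 0.28 and the adjusted p 0.773. Over all 6 doses limma's adjusted p was 0.889, but 0.00207 once the other 1 mg/kg array was left out, so that the high array stood alone for its dose, and 0.945 without the high array.

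The kidney with high *Ttr* also held other transcripts that hepatocytes secrete. In it albumin (*Alb*) read 11.06 against 3.85 to 5.86 in the other 16 kidneys. The fibrinogen chain *Fgg* read 7.74 against 2.98 to 3.63, fetuin-A (*Ahsg*) 8.15 against 3.34 to 4.99, the protease inhibitor *Serpina1* 7.64 against 3.24 to 4.93, and *Apoa1*, of high-density lipoprotein, 6.23 against 2.40 to 3.91. *Serpina7*, however, read 2.67, inside the 2.34 to 2.94 of the others. Of the 7 hepatocyte markers *Alb*, *Fgb* and *Cps1* exceeded all other kidneys and *Apob*, *Hnf4a*, *Tat* and *Arg1* did not. The mean of the 7 was 6.93 against 5.18 to 5.52. *Hnf4a* was high in kidney as well, with a median of 12.47 in the other 16 kidneys against a mean of 11.56 in vehicle liver. The *Apob* probe set that was brightest in kidney averaged only 6.79 in vehicle liver. The part of liver RNA in the kidney with high *Ttr* was not tested.

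**Figure D3:**
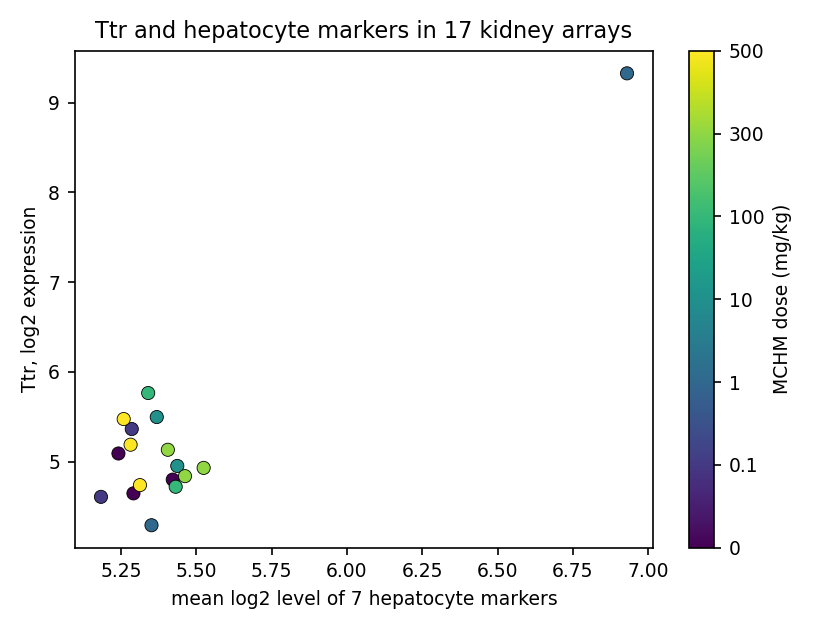
*Ttr* level against the mean log2 level of 7 hepatocyte markers in the 17 kidney arrays, coloured by dose in mg/kg. A single array at 1 mg/kg lies at 6.93 and 9.32, and the other 16 lie between 5.18 and 5.52 on the marker axis.

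The deiodinase transcript was lower in kidneys of the 2 top doses, but the difference did not pass the test across all probe sets. Vehicle kidneys read 7.88, 7.68 and 7.98. Those given 300 mg/kg read 7.41, 7.38 and 7.31, and those given 500 mg/kg 7.13, 7.05 and 7.23, both groups wholly below vehicle, as 3.68% and 8.81% of all probe sets were. All 6 kidneys of these doses lay below all 11 others, as 8 probe sets (0.0258%) did, and the 3 of the top dose lay below the 3 of the dose next to it, as 6.37% did.

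Among kidneys of the lower doses, the pair given 0.1 mg/kg read 7.95 and 7.44, the pair given 1 mg/kg 7.86 and 7.48, the pair given 10 mg/kg 7.78 and 7.79, and the pair given 100 mg/kg 7.80 and 7.71. Their ranges overlapped one another and the vehicle range. From the highest mean the order was vehicle, 10, 100, 0.1, 1, 300 and 500 mg/kg, and only the ranges of 1 and 300 mg/kg and of 300 and 500 mg/kg stood apart among neighbours in this order.

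The log2 difference of *Dio1* from vehicle in kidney was -0.09 (SE 0.15, limma adjusted p = 1) at 100 mg/kg and -0.48 (SE 0.13, limma adjusted p = 0.999) at 300 mg/kg. At 500 mg/kg it was -0.71 (SE 0.13, 95% interval -0.99 to -0.43), 1.64-fold lower, with an unadjusted p of 8.88e-05 and a limma adjusted p of 0.326. By p it ranked 6 of 31042 at 500 mg/kg, 37 at 300 mg/kg, and 10 in the trend, whose slope was -0.10 per dose level (SE 0.02, limma adjusted p = 0.372). Leaving out vehicle replicate 1 gave -0.69 with a limma adjusted p of 0.0322, and leaving out vehicle replicate 2, whose *Xist* stood apart, gave -0.80 with 0.891. Omitting other single arrays gave values inside the range of -0.80 to -0.64, none past the threshold.

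Beside this, all 8 proximal tubule markers lay below vehicle at 500 mg/kg, with a median log2 difference of -0.17 against -0.01 for all probe sets, none past the threshold. Their mean ran from 12.34 to 12.51 among vehicle kidneys, from 12.19 to 12.41 among those given 300 mg/kg, and from 12.05 to 12.36 among those given 500 mg/kg. All 5 endothelial markers lay below vehicle too (median -0.28). Of 6 thick limb and collecting duct markers 4 lay above vehicle and 2 below (median 0.41). The mean of 6 adipocyte markers differed widely among kidneys, from 5.08 to 7.45, with 5.18 to 6.58 for vehicle, 5.43 to 6.66 for 300 mg/kg and 5.30 to 7.02 for 500 mg/kg, overlapping ranges. The part of these markers in the *Dio1* values was not tested.

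In liver *Dio1* showed no detectable difference from vehicle at any of the 3 top doses. Vehicle livers read 6.68, 6.97, 6.68 and 7.07, and livers at 500 mg/kg read 6.81, 6.90, 6.70 and 6.54. The highest mean, 7.03 ± 0.19 (SD, n = 4), was at 100 mg/kg and the lowest, 6.70 ± 0.16 (SD, n = 4), at 300 mg/kg. Neighbours in the order of the means overlapped, and so did every dose with its neighbour in dose except 100 and 300 mg/kg. There all 4 arrays of the higher dose, 6.48 to 6.84, lay below all 4 of the lower, 6.84 to 7.26, a difference of -0.33, and 1.65% of all probe sets lay apart in this way. That pair was looked at after its values were seen and was not tested. The log2 difference at 500 mg/kg was -0.11 (SE 0.11, 95% interval -0.34 to 0.12, limma adjusted p = 0.83), and over the 6 doses limma's adjusted p was 0.667. The liver change minus the kidney change of *Dio1* at 500 mg/kg was 0.60 (SE 0.17, limma adjusted p = 0.153), a difference that did not pass, where 0.029% of all probe sets did. The same difference for *Ttr* was -0.32 (SE 0.68, limma adjusted p = 0.935).

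**Figure D4:**
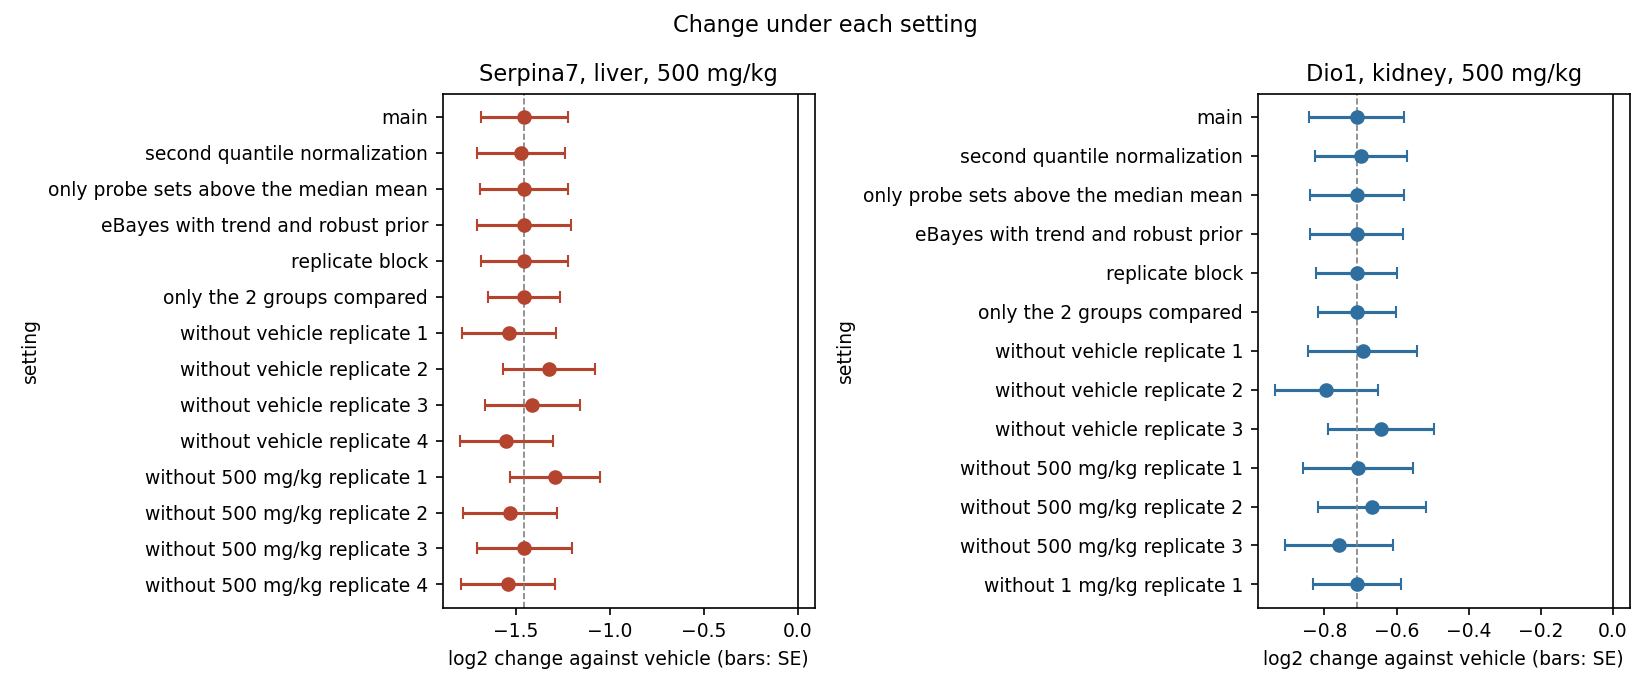
Log2 difference from vehicle at 500 mg/kg of liver *Serpina7* (left) and kidney *Dio1* (right) with each processing alternative or with an array left out; bars are SE and the dashed line is the value with all arrays. *Serpina7* runs from -1.55 to -1.29 and *Dio1* from -0.80 to -0.64.

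At 500 mg/kg none of the listed genes of carriage, deiodination, uptake, conjugation, hormone receptors, selenoprotein synthesis, plasma serpins, renal uptake, secreted carriers or hepatocyte transcription factors passed the threshold in liver, and none passed in any kidney comparison. Over all probe sets the shares were 0.177% and 0, so nothing about these genes is read from these counts. Of the 3 other carriers in liver, *Alb* had a log2 difference of 0.01 (SE 0.05), the cytosolic binder *Crym* 0.07 (SE 0.11) and *Apoa1* -0.31 (SE 0.08, limma adjusted p = 0.111). The other deiodinases were dim. *Dio2*, which makes the active hormone inside tissues, averaged 3.17 in vehicle liver and 2.74 in vehicle kidney, and *Dio3*, which inactivates hormone, 4.88 and 4.45, with differences of at most 0.22 in size at 500 mg/kg.

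Among 9 measured membrane transporters 1 rose in liver at 300 mg/kg, where 0.122% of all probe sets passed. It was *Slc3a2*, the heavy chain that pairs with amino acid and hormone transporters such as *Slc7a5*. It averaged 9.48 ± 0.08 (SD, n = 4) in vehicle livers and 10.30 ± 0.18 (SD, n = 4) at 300 mg/kg, a log2 difference of 0.82 (SE 0.13, limma adjusted p = 0.0104). The means of *Slc3a2* at 0.1, 1, 10 and 100 mg/kg were 9.95, 9.69, 9.94 and 10.08, all above vehicle and not in the order of dose. At 500 mg/kg the difference of *Slc3a2* was 0.24 (SE 0.13, limma adjusted p = 0.62). Its call at 300 mg/kg was lost without vehicle replicate 2 (0.79, adjusted p = 0.0695) and without 300 mg/kg replicate 3 (0.82, adjusted p = 0.0535), and the adjusted p over such omissions began at 0.0171. The organic anion carriers *Slco1a4* and *Slco1a1* differed by -0.31 (limma adjusted p = 0.396) and -0.17 (limma adjusted p = 0.405) at 500 mg/kg.

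Of 9 listed genes of hormone conjugation 6 were measured, and *Ugt1a1*, *Ugt1a6* and *Ugt2b17* had no probe set that names them alone. Of the 6, 4 lay above and 2 below vehicle in liver at 500 mg/kg (median 0.13). They were led by the glucuronosyltransferase *Ugt2b1* at 0.57 (SE 0.18, limma adjusted p = 0.277). The 9 receptors and coregulators had a median of 0.01, led by *Rxrb*, a partner of the hormone receptor, at 0.18 (limma adjusted p = 0.725). In kidney the 10 measured genes of selenoprotein synthesis and other selenoproteins, the class to which *Dio1* belongs, had 3 above and 7 below vehicle at 500 mg/kg, with a median of -0.07. Among them *Sephs2*, which makes the selenium donor, differed by -0.28 (SE 0.11, limma adjusted p = 0.402).

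Genes that thyroid hormone raises in liver lay on both sides of vehicle. Of 13 measured, 6 lay above and 7 below vehicle in liver at 500 mg/kg, with a median log2 difference of -0.08. *Thrsp*, a lipogenic factor raised by the hormone and by feeding, had a slope of 0.23 per dose level (SE 0.05, limma adjusted p = 0.0212). In this trend 0.168% of all probe sets passed the threshold with a rise. *Thrsp* averaged 10.76 ± 0.55 (SD, n = 4) in vehicle livers and 11.74 ± 0.38 (SD, n = 4) at 500 mg/kg. The rise was not steady, with means of 10.06, 10.66 and 10.40 at 0.1, 1 and 10 mg/kg, all below vehicle. At 100 and 300 mg/kg the means were 11.14 and 11.75. The adjusted p of the *Thrsp* trend was 0.0793 without replicate 4 at 500 mg/kg, and with other single arrays left out it was as low as 0.00503. *Klf9*, a direct target of the hormone receptor, differed by -0.61 (SE 0.22, limma adjusted p = 0.387) at 500 mg/kg, *Me1*, malic enzyme, by 0.32 (SE 0.14, limma adjusted p = 0.502), and *Cyp7a1*, of bile acid synthesis, by 1.13 (SE 0.46, limma adjusted p = 0.453).

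In kidney 10 of the 13 lay below vehicle at 300 mg/kg (median -0.20) and 10 at 500 mg/kg (median -0.21), none past the threshold. These were not all the same genes. *Gpd2* and *Fgf21* lay above vehicle only at 300 mg/kg, and *Angptl4* and *Pdk4* only at 500 mg/kg. *Klf9* differed by -0.42 (SE 0.12, limma adjusted p = 0.36) and *Me1* by -0.42 (SE 0.15, limma adjusted p = 0.396) at 500 mg/kg. These comparisons share the vehicle kidneys with those of *Dio1*.

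The serpins of liver, the family of *Serpina7*, mostly read a little below vehicle. Of 12 measured, 11 lay below at 500 mg/kg (median log2 difference -0.17 against 0.00 for all probe sets) and all 12 at 300 mg/kg (median -0.11) and in the trend (median -0.03 per level). Of these, 1 passed in the trend. *Serpina6*, which encodes the corticosteroid carrier of plasma, fell by 0.07 per level (SE 0.01, limma adjusted p = 0.0315). Of all probe sets 0.0773% passed the threshold with a fall in this trend. *Serpina6* averaged 12.31 ± 0.12 (SD, n = 4) in vehicle livers and 11.90 ± 0.19 (SD, n = 4) at 500 mg/kg. This was a log2 difference of -0.41 (SE 0.09, limma adjusted p = 0.068). The trend of *Serpina6* had an adjusted p of 0.0606 without vehicle replicate 3, 0.0511 without 300 mg/kg replicate 4, and 0.0775, 0.0584 and 0.103 without 500 mg/kg replicates 1, 2 and 4, within a range of 0.0142 to 0.103 over all single omissions. *Serpina11* differed by -0.32 (SE 0.09, limma adjusted p = 0.232), *Serpina10*, which inhibits clotting factors, by -0.20 (SE 0.06, limma adjusted p = 0.27) and *Serpind1*, a thrombin inhibitor, by -0.17 (SE 0.06, limma adjusted p = 0.372) at 500 mg/kg. The liver size of *Serpina7*, -1.46, lay outside the range of these 12, -0.42 to 0.00, a description only, since the gene was chosen for its low value.

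Of 9 measured carrier proteins that the liver secretes, 6 lay below and 3 above vehicle in liver at 500 mg/kg, with a median of -0.03. Among them *Orm1*, an acute phase carrier of drugs, differed by 0.56 (SE 0.12, limma adjusted p = 0.0534). Among 10 hepatocyte transcription factors the median was 0.05, and *Foxa3*, a forkhead factor, differed by -0.43 (SE 0.22, limma adjusted p = 0.585).

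**Figure D5:**
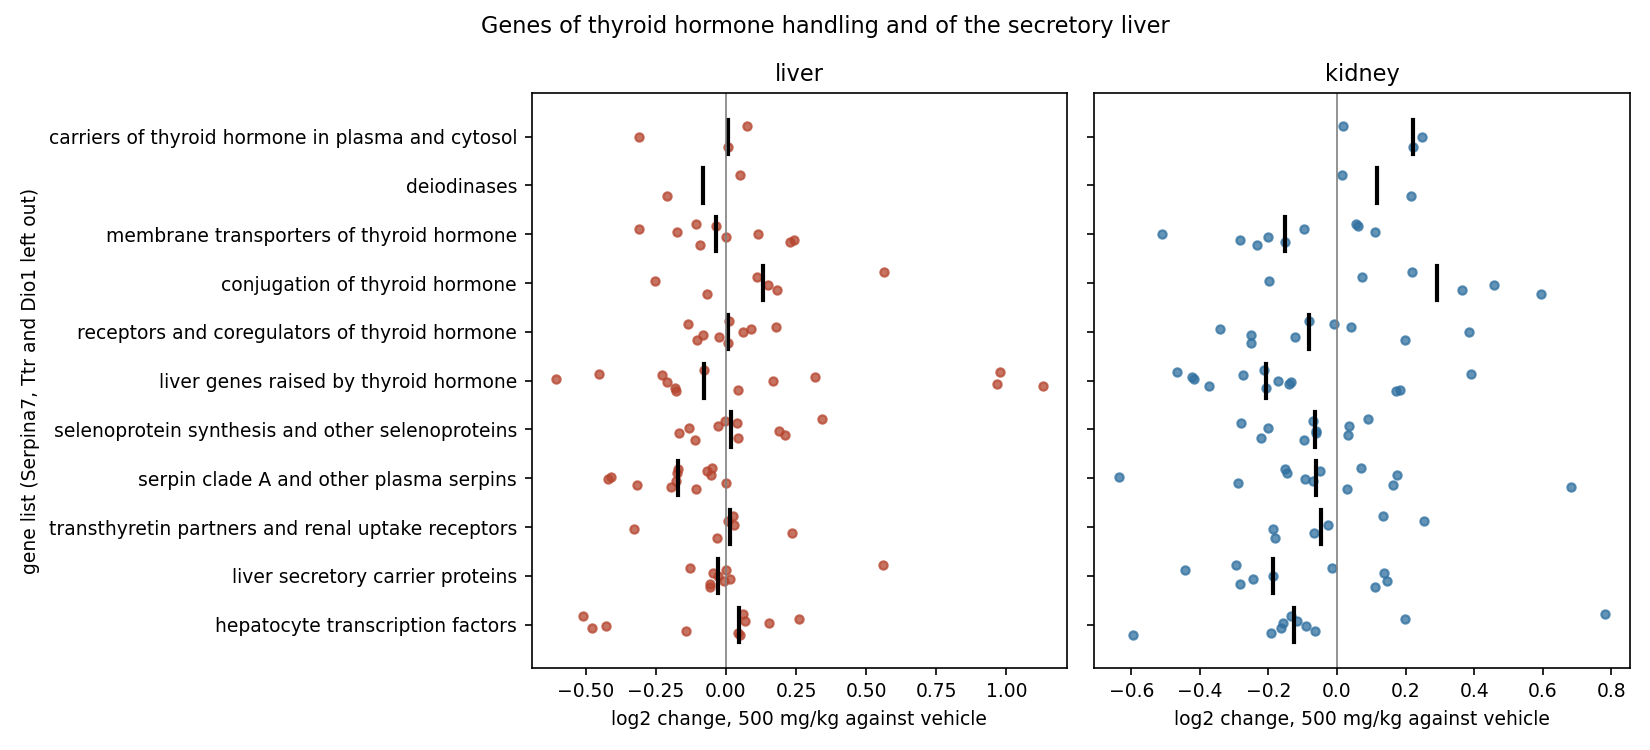
Log2 difference from vehicle at 500 mg/kg (horizontal axis, scales differ) of each measured gene of 11 lists, liver left and kidney right; points are genes, black bars list medians, and the 3 genes described here are left out. The plasma serpins in liver have a median of -0.17 and the other liver medians lie between -0.08 and 0.13.

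The transcripts most like each gene across arrays are given as a description, since the arrays share the doses. Across 27 livers *Serpina7* had its highest Pearson r with *Fabp7*, a fatty acid binding protein (0.77), *Serpina10* (0.77), the protease inhibitor *A2m* (0.77) and the phospholipase *Pla1a* (0.75), and its lowest with *Golt1a* (-0.80), the succinate-CoA ligase subunit *Suclg1* (-0.80) and *Tspan31* (-0.79). With the dose group means removed the highest were *Zfp496* (0.72), *Pla1a* (0.71), *Nfyb* (0.71) and *Igfbp2* (0.71), so *Pla1a* was in both lists. Across 17 kidneys *Dio1* had its highest r with *Coq10a* (0.88), *Pcsk1n* (0.87), *Fbf1* (0.85) and *Bmerb1* (0.84), and with dose means removed with *Snrpb2* (0.92), *Vti1b* (0.89), *Irak1bp1* (0.89) and *Ing2* (0.89). In liver *Dio1* was most like *Os9* (0.73) and *Selenon* (0.64). *Ttr*, within its narrow range, was there most like the matrix genes *Sparc* (0.73), *Col14a1* (0.69) and *Col3a1* (0.68), and then *Gpx3* (0.67). With dose means removed the highest for *Ttr* were *Car5a* (0.75), *Cyp17a1* (0.74), *Tpra1* (0.72) and *Gpx3* (0.71). Only *Gpx3* was thus in both *Ttr* lists, and the matrix genes were not in the second.

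No pair of the 3 genes passed a test of varying together among animals of a dose. With dose means removed, 6 pairs were computed, with permutation p-values within dose groups and Benjamini-Hochberg adjustment over the 6. In liver *Serpina7* and *Dio1* had Pearson r = -0.39 (n = 27, permutation p = 0.0933, adjusted 0.14) and Spearman rho = -0.32 (permutation p = 0.173), and r = -0.29 without the 2 arrays farthest from the median of *Serpina7*. In kidney the same pair had r = 0.52 (n = 17, permutation p = 0.0266, adjusted 0.0831) and rho = 0.63 (permutation p = 0.0285), and r = 0.58 without the 2 farthest. *Ttr* and *Dio1* in kidney had r = 0.63 (n = 17, permutation p = 0.0557, adjusted 0.111) and rho = 0.68 (permutation p = 0.0641), with r = 0.55 without the 2 farthest. *Serpina7* and *Ttr* in kidney had r = 0.43 (n = 17, permutation p = 0.0277, adjusted 0.0831) and rho = 0.69 (permutation p = 0.0323), with r = 0.40 without the 2 farthest, and r = 0.68 (adjusted permutation p = 0.0816) without the kidney with high *Ttr*. The remaining liver pairs, *Serpina7* with *Ttr* (r = -0.12, n = 27, permutation p = 0.6, adjusted 0.6, rho = -0.03, permutation p = 0.906, r = -0.18 without the 2 farthest) and *Ttr* with *Dio1* (r = -0.19, n = 27, permutation p = 0.307, adjusted 0.368, rho = -0.30, permutation p = 0.149, r = -0.35 without the 2 farthest), were weaker. In kidney the lower doses hold 2 arrays each, so their deviations mirror each other.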

How the data were processed

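Total RNA of 27 livers and 17 kidneys was hybridised to Affymetrix rat arrays. The deposited table holds log2 expression values that the authors summarised by RMA (background correction, quantile normalization, median polish), per the submitters' processing notes. Neither a version nor a chip definition is given in the sources used here. RMA compresses differences of dim probe sets, and a shift of most transcripts one way would not be seen. The submitters' design text says that some samples showing batch effects were dropped, and these were not analysed here. Precision is limited by how many arrays each group has.

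Of 31099 probe sets, 57 controls were left out. Of the remaining 31042, 20826 have 1 symbol, 436 several and 9780 none in the platform annotation, and 20758 matched by gene ID to a table of rat genes from GRCr8. The genes are *Serpina7* (gene ID 81806, chromosome X), *Ttr* (gene ID 24856, chromosome 18) and *Dio1* (gene ID 25430, chromosome 5). A further *Ttr* probe set whose annotation names several genes was not used. Protein sequences were not used here.

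Each organ's 7 groups were fitted together with limma 3.58.1 (lmFit, eBayes) in R 4.3.3, tests two-sided, Benjamini-Hochberg over 31042, threshold 0.05. Adjusted p-values come from limma throughout, except for pairs of members, tested with 100000 permutations within dose groups. Organs were compared in 1 fit of 44 arrays without an animal block, since the labels do not tie organs to animals. The labels call the samples biological replicates and say no more of their source. Groups come from array titles. The fits were tested on simulated data.

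The members and lists were chosen with earlier results of these data known, and some lists were kept from that work. Genes named are list members past the threshold or, where none of a list passed, up to 4 by smallest p, and for likeness the 4 highest and 3 lowest r. Where a gene has several probe sets, the brightest in the organ was used. Alternatives were a second quantile normalization, only probe sets above the median mean, a trended robust prior, the replicate number as a block, only the 2 groups compared, and each array left out. Leaving out the kidney with high *Ttr* from the other comparisons was chosen after seeing the data.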

Additional observations from a re-analysis of the deposited data

Results flagged for a closer look

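Of 18 groups of 4 arrays checked for a lone high or low value, 2 had an array far from the others of its group by Dixon's criterion, and chance gives about 1 in 20. *Serpina7* in liver at 1 mg/kg had 1 array at 9.42, with the other 3 between 9.95 and 9.97. *Ttr* in liver at 500 mg/kg had 1 array at 14.214, with the other 3 between 14.17 and 14.18.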

How the results depend on the processing

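Over results other than the counts over all probe sets, 663 values were labelled unchanged, 5 passed the threshold newly and 9 no longer did. Unchanged means the same side of the threshold. For the untested differences of *Serpina7* it means the same direction and a shift smaller than the within-dose SD. Differences that did not pass could change direction and still count as unchanged. *Ttr* in kidney at 100 mg/kg ran from -0.13 to 0.92 with single arrays left out. *Dio1* in kidney at 500 mg/kg ran from -0.80 to -0.64 with single arrays left out and passed only without vehicle replicate 1 (-0.69, adjusted p = 0.0322, with 0.253 for the robust prior, 0.198 for brighter probe sets and 0.387 for the 2 groups alone). The adjusted p of *Ttr* over all kidney doses ran from 0.00207 to 0.972. *Serpina7* in liver at 500 mg/kg ran from -1.55 to -1.29. *Serpina6* in liver at 500 mg/kg passed with brighter probe sets (-0.41, 0.0246), the robust prior (-0.41, 0.0119) and without 500 mg/kg replicate 3 (-0.50, 0.0289), and *Slc3a2* at 300 mg/kg did not with the 2 groups alone (0.82, 0.0754). Counts of probe sets past the threshold moved more, and the cause was not tested beyond the smaller number of probe sets or arrays. At 300 mg/kg in liver 38 became 16 with the second normalization, 139 with brighter probe sets, 84 with the robust prior, 60 with the replicate block, 2 with the 2 groups alone and 0 to 22 without single arrays. At 500 mg/kg in liver 55 became 104, 136 and 1 with brighter probe sets, the robust prior and the 2 groups alone, and 9 to 84 without single arrays. For any dose in liver 46 became 89 and 165 with brighter probe sets and the robust prior, and 13 to 55 without single arrays. For the liver trend 76 became 211, 167 and 50 with brighter probe sets, the robust prior and the replicate block, and 12 to 91 without single arrays. At 100 mg/kg in liver 0 became 0 to 2. In kidney 0 became 0 to 23 at 100, 0 to 103 at 300 and 0 to 616 at 500 mg/kg and 0 to 101 for any dose, each highest without vehicle replicate 1. Between vehicle organs 19047 became 11785 with brighter probe sets and 16899 to 18998 without single arrays. For liver minus kidney change 9 became 70 and 26 with brighter probe sets and the robust prior, and 0 to 746 without single arrays. Same-numbered arrays of different doses correlated at -0.14 to 0.23 in liver (median 0.02) and -0.35 to 0.36 in kidney (median 0.06). Arrays of different numbers had a median of -0.01 in liver and -0.06 in kidney. In kidney doses with a pair of arrays the deviations mirror each other, so these values cannot settle whether a number marks a shared source. Whether a liver and a kidney of the same number share an animal was not tested, and *Xist* was high in vehicle replicate 2 of both organs. With the replicate block *Dio1* in kidney at 500 mg/kg had an adjusted p of 0.471 and no call of *Ttr*, *Dio1*, *Slc3a2*, *Thrsp* or *Serpina6* changed. In kidney, *Serpina7* and *Ttr* are too dim to enter the fit of brighter probe sets.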
